A study of Mus musculus with 24 samples.

Results

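Cells of the mouse ovarian cancer line ID8 that had received 1000 IU/ml of recombinant murine interferon (IFN) beta for 3 h were compared with untreated ID8 cells (UT), which had received phosphate-buffered saline. The comparison was fixed by the labels and holds 6 of the 19 samples analysed here, 3 treated and 3 untreated, on 9 of the 24 arrays of the series. The treated samples were measured on 1 array each and the untreated ones on 2, which were averaged. ID8 is a single line of mouse ovarian surface epithelial cells that became tumorigenic in culture, so the samples are repeat cultures of the same cells. Replicates 1, 2 and 3 were made on separate dates, technical repeats within a date were combined into a sample, and samples were paired by replicate number. Other groups of the series received 10 or 100 IU/ml IFN beta, or 10, 100 or 1000 IU/ml IFN epsilon, a type I interferon of the reproductive tract epithelium. All of them shared the line, the 3 h of exposure and the medium.

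Type I interferons bind a receptor made of Ifnar1 and Ifnar2, which carries the kinases Jak1 and Tyk2. These phosphorylate STAT proteins such as Stat2, which join Irf9 to form the complex ISGF3. The complex binds the interferon-stimulated response element in the promoters of its target genes, and the products of these genes block virus replication, present antigen and call in leukocytes. In tumour cells the same genes bear on how visible the cell is to T cells and natural killer cells.

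Levels below are log2 processed intensity relative to the 75th percentile of the array, and differences are log2 fold changes ± SE from limma, treated over untreated, n = 3 against 3, with p-values adjusted over all 14428 genes tested (Benjamini-Hochberg). A gene was called at an adjusted p under 0.05. The array's 75th percentile was an intensity of 747 to 1221 in treated samples and of 779 to 1103 in untreated samples. It was lower in replicate 3 (747 to 791) than in replicates 1 and 2 (986 to 1221). The share of probes above background was at most 54.0% on any treated array and ran from 48.1% to 53.9% on untreated ones. Of 28 ovarian epithelial and mesenchymal markers on the array, 26 were well above background on all 9 arrays, among them Krt8, Krt18, Msln and Wt1. Of 21 leukocyte markers 13 were above background on 0 arrays, among them Ptprc and Lyz2, and 7 were on all 9, among them Cd3e, Cd4 and Itgam. Of 22 endothelial, fibroblast and adipocyte markers 9 were above background on 0 arrays and 10 on all 9, among them Dcn, Acta2 and Col1a1. Mean untreated levels were 6.40 for Dcn and 6.97 for Acta2, beside 6.52 for Krt18. In such bulk RNA, fewer cells of a type and less RNA per cell cannot be told apart. The summed linear level of the leukocyte markers tested lay between 13.4 and 18.1 in treated samples and between 8.94 and 14.6 in untreated samples.

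After 3 h with IFN beta at 1000 IU/ml, the genes that rose included antiviral effectors, GTPases, the Isg15 system and MHC class I genes. Of 14428 genes 497 (3.44%) were called: 403 (2.79%) rose and 94 (0.652%) fell. Of the genes that rose, 281 did so at least 2-fold, 145 by at least 2 and 46 by at least 4 on the log2 scale, with a median of 1.45. The falls were small: their median size was 0.42 and 73 of 94 were under 0.5. A fitted fall of at least 2-fold was found for 1 gene, Zfp174, whose levels lay mostly at background. The median log2 fold change of all genes was -0.04. Of the 403 genes, 382 are annotated as protein coding, and 148 are in at least 1 of the 23 gene lists used below. For 355 of the 403 all 3 treated samples lay above all 3 untreated samples, an order held by 5.43% of all genes tested. For 27 of the 94 all 3 lay below, beside 4.6% of all genes.

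**Figure D1:**
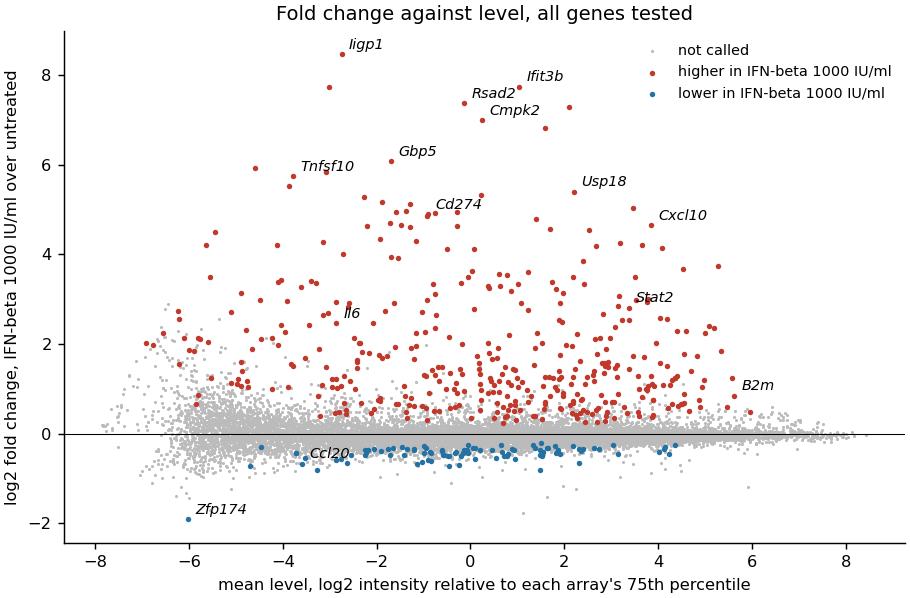
Each point is a gene, with its mean level over treated and untreated samples on the horizontal axis (log2 intensity relative to the 75th percentile of the array) and its log2 fold change, IFN beta 1000 IU/ml over untreated, on the vertical axis. Genes below background in a group are plotted at their fitted value. Most of the 94 genes that fell lie within 0.5 of 0, and the 403 that rose include genes of low and high level.

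The number of calls depended on the pairing. Without the replicate block limma called 230 genes (1.59%), 228 higher (1.58%) and 2 lower (0.0139%), all of them also called with it. With all 24 arrays, including 2 IFN beta arrays that the labels mark as left out, 117 rose and 9 fell. A fit to the 6 samples alone, with few degrees of freedom and only their own spread, called 14 and 0. Scaling arrays to their medians instead moved the median of all genes to -0.19 and gave 244 higher and 8 lower, and scaling on probes detected everywhere gave 401 and 220.

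The response differed in size between replicates. The median difference between a treated sample and the untreated sample of the same number, over the 403 genes, was 0.86 in replicate 1, 1.24 in replicate 2 and 2.13 in replicate 3. Replicate 3 held the largest of the 3 differences for 351 of the 403 genes. Its treated level stood 0.60 above the mean of the treated samples in the median gene, against -0.45 in replicate 1 and -0.16 in replicate 2. The same median for untreated samples lay within 0.04 of their mean. These medians are signed, so opposite deviations cancel. Over all genes detected on every untreated array, untreated replicate 3 differed from replicates 1 and 2 by a median absolute 0.27 and 0.29. Replicates 1 and 2 differed by 0.16. The 94 genes that fell had medians of -0.28, -0.37 and -0.56. Of the 403 genes 401 had differences above 0 in all 3 replicates, and 94 of 94 had differences below 0. Gm15133 and H2-K1 had no difference in replicate 2. The genes were called from these same differences, so a shared direction was largely set by the selection. Without replicate 3 the median rise of the 403 genes was 1.06 and limma called 224 higher, 219 of them among the 403, and 4 lower, 2 of them among the 94. Without replicate 1 it called 185 and 17, and without replicate 2 it called 91 and 1. Leaving out only the untreated sample of replicate 3 gave 220 and 6. The labels mark the replicate 3 arrays of IFN beta at 10 and 100 IU/ml as left out by the submitters for unusually strong induction of interferon-stimulated genes, and the array at 1000 IU/ml carries no such mark. What set replicate 3 apart was not tested. Slide 1 held treated replicate 2 and an array each of untreated replicates 1 and 3, and there 397 of the 403 genes were higher in the treated sample and 78 of the 94 were lower. Slide 3 held treated replicates 1 and 3 and both arrays of untreated replicate 2, which are 1 sample, and the numbers were 397 and 83. These within-slide values cross dates, ignore the pairing and use the arrays on which the genes were called.

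**Figure D2:**
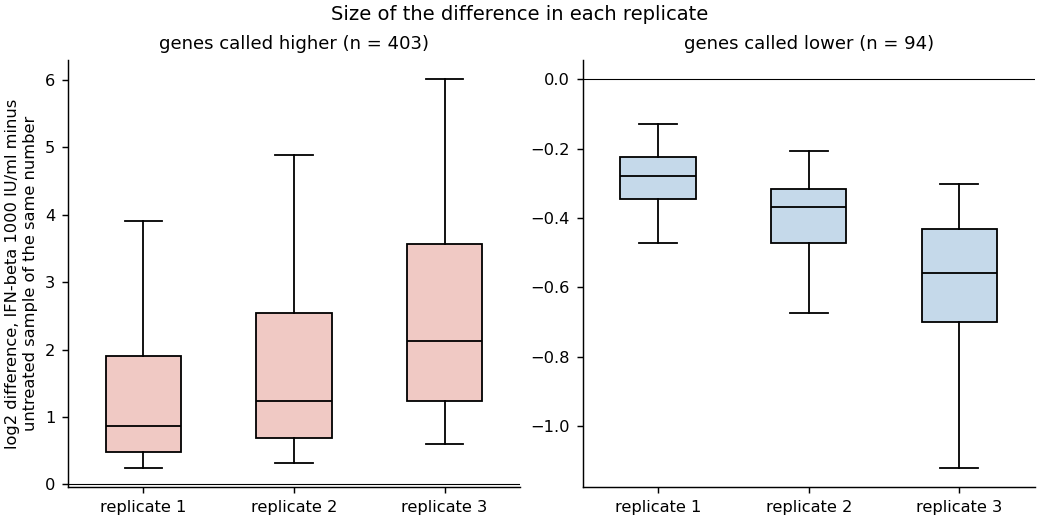
Log2 difference between the IFN beta 1000 IU/ml sample and the untreated sample of the same replicate, for the 403 genes called higher and the 94 called lower. Boxes span the quartiles with the median as a line and whiskers reach the 5th and 95th percentiles of genes. The medians of the genes called higher are 0.86, 1.24 and 2.13.

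Among the genes that carry the signal, Stat2 and Irf9 of ISGF3 rose and the receptor did not pass the test. Stat2 was at 4.16, 4.97 and 5.20 in treated replicates 1, 2 and 3, against 2.08, 1.80 and 2.01 in untreated ones. The groups were far apart, and Stat2 rose by 2.81 ± 0.23 (adjusted p = 1.04e-05), and Irf9, the DNA-binding part, rose by 1.58 ± 0.15 (adjusted p = 3.37e-05). Ifnar1 levels overlapped between the groups, with a log2 fold change of 0.02 ± 0.10 (adjusted p = 0.961) whose sign turned under median scaling (-0.13). Ifnar2 (0.10 ± 0.08), Jak1 (-0.02 ± 0.11) and Tyk2 (-0.06 ± 0.06) were not called either.

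Of 11 other STATs and IRF family factors tested, 4 rose, with a median of 0.48 over the list beside -0.04 for all genes. Irf7, which drives interferon alpha genes, was at 5.91, 6.22 and 6.95 in treated cells, against 2.73, 1.97 and 3.37 in untreated cells. It rose by 3.67 ± 0.22 (adjusted p = 1.36e-06), with no overlap between the groups. Batf2, a partner of Irf1 in macrophages, rose (adjusted p = 0.00453). Of 6 untreated arrays 4 measured it, its untreated level in replicate 3 was -6.16, and its difference was 2.96 without that replicate. Irf2, which can oppose Irf1, rose by 1.35 ± 0.26, and Irf5 by 1.32 ± 0.22. Irf1 itself was not called (adjusted p = 0.055). The call of Irf5 was lost without the replicate block (adjusted p = 0.083) and that of Irf2 without replicate 3 (adjusted p = 0.199). None of the 4 interferon genes tested was called (1 was without replicate 3), and Ifnb1 was not well above background on any of the 9 arrays.

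Of 17 inhibitors of the pathway 4 rose, and the list median was 0.06. Usp18, which removes Isg15 from proteins and blocks Ifnar2 signalling, was at 4.23, 4.93 and 5.59 in treated cells, against -0.48, -1.13 and 0.16 in untreated cells. Its rise of 5.40 ± 0.29 (adjusted p = 1.36e-06) was the largest of the list. Socs1, which inhibits Jak1 and Tyk2, was at -1.37, 0.21 and 2.40, against -2.09, -2.10 and -1.64. It rose by 2.36 ± 0.50 (adjusted p = 0.023), with adjusted p = 0.29 without the block and 0.332 without replicate 3. Trafd1 (1.49 ± 0.28) and Usp25 (1.26 ± 0.15) were the other two, and Trafd1 was not called without replicate 3. Socs3 (-0.05) and the Pias genes, whose products restrain activated STATs, were not called.

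Antiviral effectors were numerous among the genes that rose. Of 14 Ifit and Oas genes tested 13 rose, with a median of 3.77. Ifit proteins bind viral RNA that lacks the host's cap marks, and Oas proteins make a messenger in response to double-stranded RNA. Ifit3 was at 4.56, 5.68 and 7.01 in treated cells, against -2.03, -2.58 and -0.04 in untreated cells, and rose by 7.30 ± 0.52 (adjusted p = 3.11e-06). Its near-identical copy Ifit3b rose by 7.74 ± 0.51 and Ifit1 by 6.83 ± 0.42, and signal of the first pair cannot be told apart with certainty. Oas2 was at 2.82, 2.68 and 3.18, against -1.62, -2.80 and -2.87, and rose by 5.32 ± 0.32 (adjusted p = 1.36e-06). The 3 treated samples lay close together for Oas2. Ifit1bl2 was the 1 member not called (0.46, adjusted p = 0.11).

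Of 32 other antiviral effectors tested 29 rose, with a median of 2.00. Rsad2 (viperin), which makes a nucleotide that stops viral polymerases, was at 0.80, 4.26 and 5.62 in treated cells, against -4.31, -4.23 and -2.90 in untreated cells. Its rise of 7.37 ± 0.70 (adjusted p = 4.07e-05) came with a wide treated range, low in replicate 1 and high in the other two. Cmpk2, a mitochondrial nucleotide kinase encoded next to Rsad2, was at 2.11, 3.82 and 5.29, against -3.27, -3.74 and -2.76, and rose 128-fold (adjusted p = 3.83e-06). Phf11b rose by 5.28 ± 0.64, and 5 of the 6 untreated arrays measured it. Bst2 (tetherin), which holds budding virus at the membrane, rose by 1.78, Ifitm3, which blocks virus entry, by 1.74, and Eif2ak2, the kinase that stops translation on double-stranded RNA, by 2.11. Ifitm1 (0.18), Ifi27 (-0.02) and Sp110 (0.26) were not called.

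**Figure D3:**
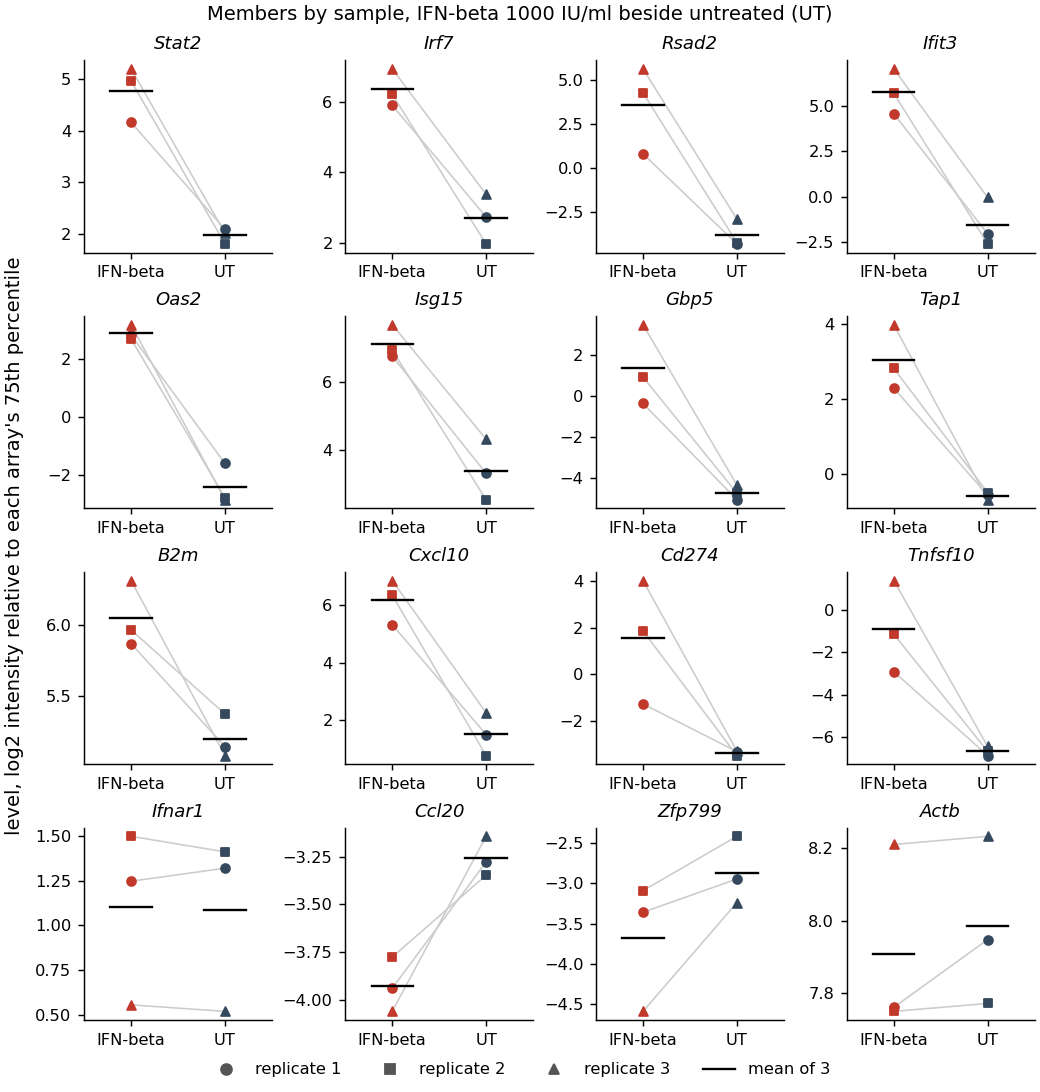
Level of 16 genes (log2 intensity relative to the 75th percentile of the array) in the 3 samples treated with IFN beta at 1000 IU/ml and the 3 untreated samples. Marker shapes give the replicate, grey lines join samples of the same number and black bars are means of 3. Stat2 and Irf7 separate the groups fully, Ifnar1 and Actb do not, and Ccl20 lies lower in treated cells.

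The promoters of these genes were read for the letters of the response element. The core searched was GAAANNGAAA on either strand, in the 250 bases before and 50 after each RefSeq gene start (GRCm38.p6). A window was available for 316 of the 403 genes that rose, 76 of the 94 that fell and 11422 of all tested. The windows of the 4 genes with the largest rises among those with a core show where the core lies, with its letters on either strand in capitals.
Ifit3b, chr19:34607707-34608006, plus strand: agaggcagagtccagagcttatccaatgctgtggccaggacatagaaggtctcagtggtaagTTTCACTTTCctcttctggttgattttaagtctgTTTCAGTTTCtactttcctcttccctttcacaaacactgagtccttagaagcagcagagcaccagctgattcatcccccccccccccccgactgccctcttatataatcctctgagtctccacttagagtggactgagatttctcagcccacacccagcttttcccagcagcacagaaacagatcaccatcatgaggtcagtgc
Ifit3, chr19:34583279-34583578, plus strand: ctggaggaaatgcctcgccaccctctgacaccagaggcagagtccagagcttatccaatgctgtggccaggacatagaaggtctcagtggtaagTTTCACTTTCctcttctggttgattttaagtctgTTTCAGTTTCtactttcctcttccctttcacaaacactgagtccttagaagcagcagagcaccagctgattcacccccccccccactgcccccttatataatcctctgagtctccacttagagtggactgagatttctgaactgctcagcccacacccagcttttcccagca
Rsad2, chr12:26456403-26456702, minus strand: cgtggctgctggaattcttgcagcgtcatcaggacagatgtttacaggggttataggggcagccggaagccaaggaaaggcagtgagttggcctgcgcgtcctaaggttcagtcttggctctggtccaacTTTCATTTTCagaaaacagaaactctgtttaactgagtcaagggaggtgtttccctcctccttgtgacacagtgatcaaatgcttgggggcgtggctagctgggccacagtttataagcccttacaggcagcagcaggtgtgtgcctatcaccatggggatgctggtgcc
Ifit1bl1, chr19:34601919-34602218, minus strand: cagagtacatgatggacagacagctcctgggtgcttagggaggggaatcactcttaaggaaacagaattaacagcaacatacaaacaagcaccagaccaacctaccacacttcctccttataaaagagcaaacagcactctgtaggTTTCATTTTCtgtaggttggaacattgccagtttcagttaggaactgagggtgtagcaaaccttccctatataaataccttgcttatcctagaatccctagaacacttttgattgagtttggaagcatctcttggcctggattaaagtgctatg
Ifit3b and Ifit3 each hold 2 cores, 183 and 149 bases before the start in Ifit3b and 151 and 117 in Ifit3. Rsad2 holds 1 core 115 bases before the start, and Ifit1bl1, an Ifit1-like gene, 1 core 99 bases before it and, at a second start not shown, 1 core 18 bases before that start. The genes with the largest rises whose windows held no core were Cmpk2 and the death ligand Tnfsf10, shown here for contrast and without capitals.
Cmpk2, chr12:26468965-26469264, plus strand: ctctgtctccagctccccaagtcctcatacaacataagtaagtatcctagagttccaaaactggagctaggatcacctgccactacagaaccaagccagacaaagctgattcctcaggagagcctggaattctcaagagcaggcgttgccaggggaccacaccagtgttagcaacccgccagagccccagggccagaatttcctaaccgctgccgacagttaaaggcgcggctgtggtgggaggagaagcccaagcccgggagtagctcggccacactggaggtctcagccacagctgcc
Tnfsf10, chr3:27316827-27317126, plus strand: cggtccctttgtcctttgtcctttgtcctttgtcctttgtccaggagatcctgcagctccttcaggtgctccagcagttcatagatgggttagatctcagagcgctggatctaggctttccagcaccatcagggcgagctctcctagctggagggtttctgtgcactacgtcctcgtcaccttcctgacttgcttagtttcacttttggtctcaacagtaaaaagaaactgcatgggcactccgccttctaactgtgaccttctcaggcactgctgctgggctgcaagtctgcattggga

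The share of genes with a core was higher where the rise was larger. It was 64.5% (20 of 31) among genes that rose at least 16-fold, 35.5% (27 of 76) between 4-fold and 16-fold, 21.1% (23 of 109) between 2-fold and 4-fold and 11% (11 of 100) below 2-fold. Over all genes that rose it was 25.6% (81 of 316), against 1.32% (1 of 76) among genes that fell, 3.63% (415 of 11422) among all genes tested and 3.99% among the 27025 genes of the promoter table. In the genes that rose the 113 matches had a median position 54 bases before the start, and 65.5% lay within the last 150 bases before it. In all genes tested, which include them, the 475 matches had a median of 108 bases before the start, and 51.2% lay within those 150 bases. The STAT site TTCNNNGAA, on both strands, was in 11.4% of the genes that rose and 8.42% of all tested. By list, the core was in 8 of 9 guanylate-binding proteins and IRG GTPases that rose, 8 of 11 Ifit and Oas genes, 10 of 17 Trim, Parp and Schlafen genes and 6 of 9 sensors. It was in 3 of 14 MHC class I genes that rose and 2 of 6 that were not called, and in 0 of 8 cell death genes that rose and 2 of 21 that were not called. It was also in 2 of 4 interferon genes, none of them called. These matches describe the windows only, and binding was not measured.

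**Figure D4:**
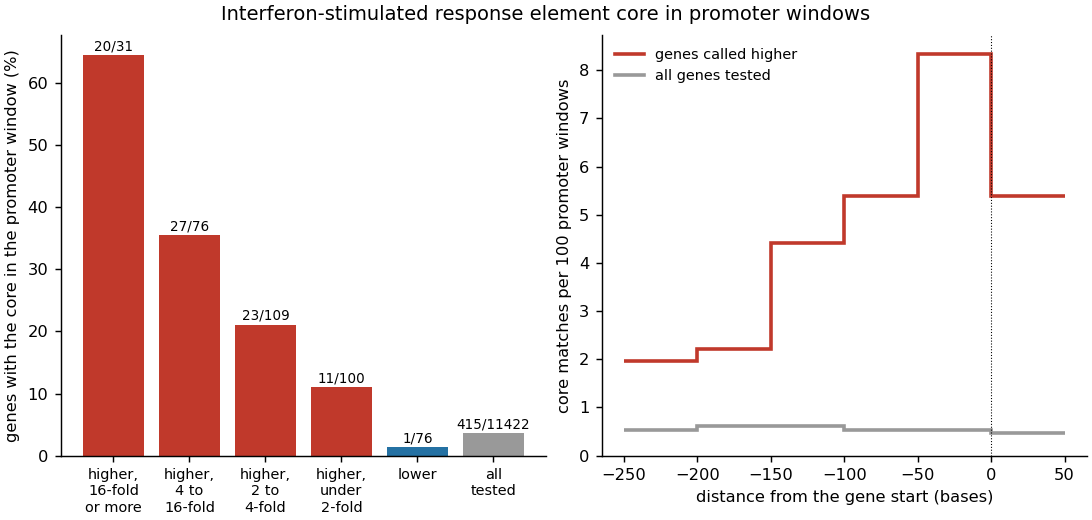
Left, percent of genes whose promoter window holds the response element core, by size of the rise, for genes that fell and for all genes tested, with the number of genes above each bar. Right, core matches per 100 windows in steps of 50 bases from the gene start. The share is 64.5% in the bin of at least 16-fold and 11% in that of under 2-fold.

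In the list of Isg15 conjugation 6 of 6 genes rose, with a median of 3.04. The list holds the ubiquitin-like protein Isg15, enzymes that attach it to other proteins, and Usp18, which removes it. Isg15 was at 6.77, 6.95 and 7.70 in treated cells, against 3.33, 2.55 and 4.33 in untreated cells, and rose by 3.74 ± 0.24 (adjusted p = 1.54e-06). Its activating enzyme Uba7 rose by 2.54 ± 0.19, its conjugating enzyme Ube2l6 by 2.22, its mouse ligase Herc6 by 3.54 ± 0.26 and Trim25 by 1.85, alongside the protease Usp18 above.

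Of 23 Trim, Parp and Schlafen genes tested 21 rose, with a median of 2.91. Trim30a was at 0.92, 0.66 and 1.74, against -4.01, -3.65 and -3.92, and rose by 4.97 ± 0.33 (adjusted p = 2.14e-06). Its copy Trim30d, which may share probe signal, rose by 4.95 ± 0.30. Slfn8, of the Schlafen family of growth and RNA regulators, rose by 5.12 ± 0.40, and Parp14, a mono-ADP-ribosyltransferase, by 4.78 ± 0.30. Dtx3l and Parp9, which work as a pair, rose by 3.24 and 2.91. Slfn5, not well above background on untreated arrays (adjusted p = 0.11), and Parp8 (0.49) were not called.

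Of 21 genes of nucleic acid sensing tested 12 rose. Among receptors, Zbp1, which recognises left-handed nucleic acid, rose by 4.92 ± 0.39, the endosomal double-stranded RNA receptor Tlr3, measured on 4 of 6 untreated arrays, by 4.27 ± 0.43, and the helicases Dhx58 and Ddx60 by 4.13 ± 0.23 and 3.93 ± 0.29. The cytosolic RNA receptors Ddx58 (RIG-I) and Ifih1 (MDA5) rose by 2.54 and 3.13, and the DNA sensor Cgas by 1.23. The adaptor Myd88 rose 2.65-fold. The adaptors Mavs (-0.21), Sting1 (0.39) and Ticam1 (-0.10) and the kinases Tbk1 (0.43) and Ikbke (0.19) were not called.

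Guanylate-binding proteins (Gbp) and immunity-related GTPases (IRG), which coat and break vacuoles that hold pathogens, had the highest list median, 4.39, and all 16 tested rose. Gbp5, which also promotes inflammasome assembly, was at -0.36, 0.93 and 3.50 in treated cells, against -5.08, -4.75 and -4.36 in untreated cells. The groups did not overlap, treated levels spread widely, and Gbp5 rose by 6.09 ± 0.55 (adjusted p = 2.62e-05). Igtp rose by 5.04 ± 0.31, Gbp7 by 4.95 ± 0.30 and Gbp2 by 4.54 ± 0.43, with treated levels of Gbp2 at 3.25, 4.55 and 6.60, against -0.18, 0.41 and 0.55. Members of these families resemble each other, so probe signal of single members is uncertain. Without replicate 3, 14 of the 16 were called and the median was 3.81.

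In MHC class I antigen presentation 19 of 26 genes tested rose, with a median of 1.17. Nlrc5, the transactivator of class I genes, was at -0.06, 0.83 and 2.19, against -3.28, -2.86 and -3.82, and rose by 4.31 ± 0.43 (adjusted p = 5.55e-05). Tap1, of the peptide transporter, was at 2.30, 2.83 and 3.99, against -0.56, -0.49 and -0.68, and rose by 3.62 ± 0.29 (adjusted p = 1e-05). The immunoproteasome subunits Psmb9 and Psmb8 rose by 3.18 ± 0.39 and 2.50 ± 0.33. The heavy chain H2-K1 was at 5.98 and 6.28 in treated replicates 1 and 3, against 5.13, 5.47 and 4.45, with no value in treated replicate 2, which the fit left out. It rose by 1.25 ± 0.19 (adjusted p = 0.00277), and adjusted p = 0.098 without the block. Its call was lost in 6 of 22 alternative settings, among them the mean over the probes of a gene. B2m, the light chain, was at 5.87, 5.96 and 6.31, against 5.15, 5.37 and 5.08, a rise of 0.85 ± 0.12 (adjusted p = 0.00121). The general chaperones Calr (0.00), Canx (0.02) and Pdia3 (0.04) were not called. The list's median was 0.75, 0.80 and 1.96 in replicates 1, 2 and 3, and 15 of 26 were called without replicate 3.

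No gene of MHC class II presentation was called among 10 tested by limma, beside 3.44% of all genes. With so few genes, absence of a response is not read from this count. For 3 of the 10 all treated samples lay above all untreated ones, beside 5.43% of all genes. Its transactivator Ciita was not well above background on untreated arrays (adjusted p = 0.105), and the log2 fold change of the invariant chain Cd74 was 0.12.

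**Figure D5:**
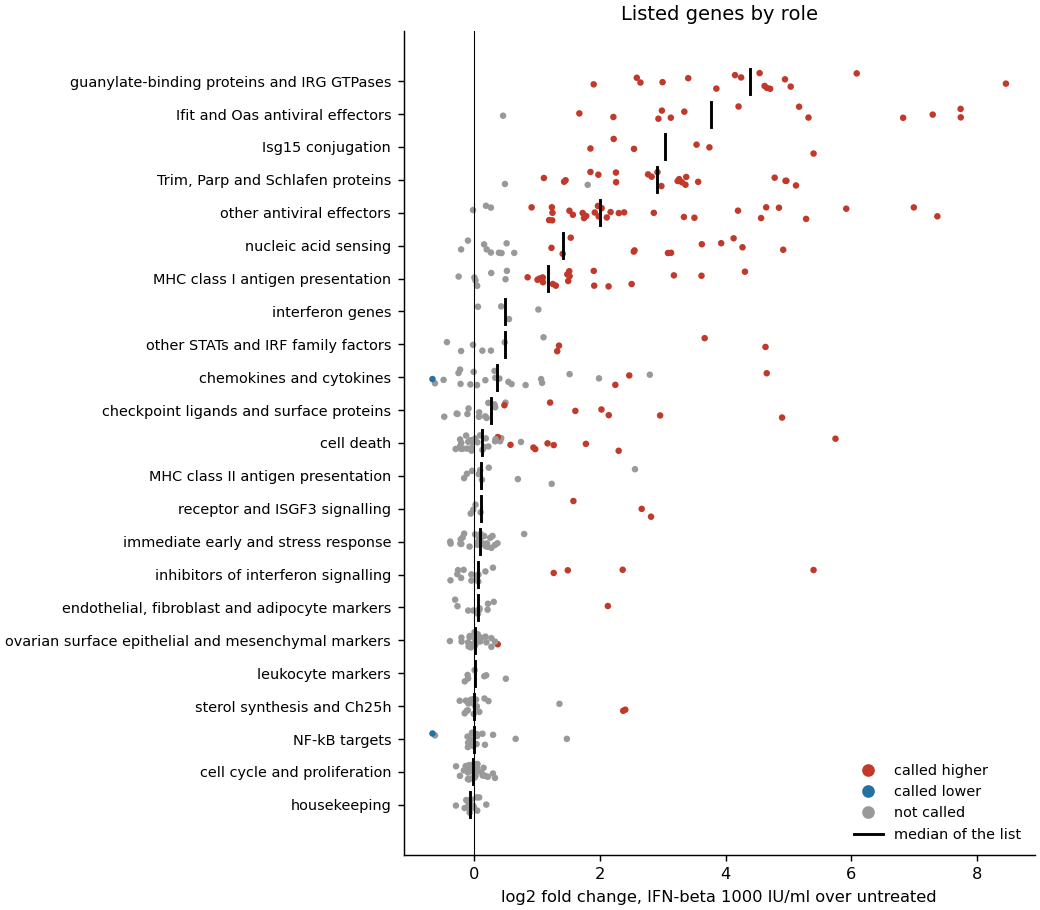
Log2 fold change, IFN beta 1000 IU/ml over untreated, of every tested member of the 23 gene lists, ordered by list median (black line). Red points rose, blue points fell and grey points were not called. Medians run from 4.39 for GTPases to -0.06 for housekeeping genes.

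Of 24 secreted signals tested 3 rose and 1 fell, which is 16.7% of the list beside 3.44% of all genes, with a median of 0.37. Cxcl10, which draws in T cells and natural killer cells, was at 5.32, 6.34 and 6.85 in treated cells, against 1.51, 0.78 and 2.26 in untreated cells. It rose by 4.65 ± 0.42 (adjusted p = 2.43e-05). Il6, an inflammatory cytokine, was at -3.61, -2.58 and 1.28, against -4.80, -4.99 and -2.51, so that the groups overlapped. Its rise of 2.46 ± 0.41 (adjusted p = 0.00478) rested on the pairing, with adjusted p = 0.989 without the block and 0.0693 without replicate 3. Il18bp, a decoy for interleukin 18, rose by 2.24 ± 0.38. Cxcl9, a chemokine of the same receptor as Cxcl10, was at -7.04, -6.67 and -1.65, against -8.01, -8.10 and -7.63. Of 3 treated arrays 1 had it well above background, and of 6 untreated arrays 0 did. It was not called (adjusted p = 0.11). Ccl20, which draws in cells with the receptor Ccr6, was at -3.94, -3.78 and -4.06, against -3.28, -3.35 and -3.14, and fell by 0.67 (SE 0.15, adjusted p = 0.0275, and 0.12 without the block).

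Surface proteins and checkpoint ligands had 7 of 20 higher, with a median of 0.27. Cd274 (PD-L1), the ligand that dampens T cells, was at -1.27, 1.86 and 4.02 in treated cells, against -3.31, -3.48 and -3.29 in untreated cells. All treated samples lay above all untreated ones, but the treated samples lay far apart, and the rise was 4.90 ± 0.82 (adjusted p = 0.00491). It was not called without the block (adjusted p = 0.055) or without replicate 3 (3.69, adjusted p = 0.18). Ly6a (Sca-1), measured on 4 of 6 untreated arrays, rose by 2.96 ± 0.44 and Ly6c2 by 2.14 ± 0.43. Cd47, which signals to phagocytes not to engulf, rose by 0.48, and Cd276 (0.49) and Cd80 (0.32) were not called.

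Of 35 cell death genes tested 9 rose, with a median of 0.13. Tnfsf10 (TRAIL), a ligand of death receptors, was at -2.92, -1.16 and 1.36 in treated cells, against -6.86, -6.67 and -6.43 in untreated cells, where none of the 6 arrays had it well above background. It was at least 26.3-fold higher, and the adjusted p of 0.000125 belongs to the fitted difference and does not test this bound. Daxx, a nuclear regulator of death and transcription, rose by 2.30 ± 0.29, Casp4, which senses bacterial lipopolysaccharide in the cytosol, by 1.77 ± 0.28, and Mlkl, the executor of necroptosis, by 1.26 ± 0.23. Fas rose by 0.94 and Casp1 by 1.16. The mitochondrial pathway genes Bcl2 (-0.30), Bax (-0.13), Mcl1 (-0.23) and Casp9 (-0.10), and Casp8 (-0.05), were not called. Without replicate 3 the count was 5 of 35.

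The counts of the other lists are set beside the 3.44% called among all genes, and nothing particular to a list is read from them. By limma, 0 of 29 cell cycle genes, 0 of 26 immediate early and stress genes and 0 of 16 housekeeping genes were called, with medians of -0.02, 0.08 and -0.06. Of 20 NF-kB targets 0 rose and 1 fell, Ccl20. Nfkbia (-0.04) and Tnfaip3 (-0.02), which respond early to that pathway, were not called. In the list of sterol synthesis and Ch25h, 2 of 22 rose, Apol9a and Apol9b (2.37 ± 0.16 and 2.40 ± 0.14). These are apolipoprotein L genes that may share probe signal, and no enzyme of sterol synthesis was called. Of 26 ovarian epithelial and mesenchymal markers 1 rose, the transcription factor Snai2, at 0.91, 0.87 and 0.96 against 0.72, 0.51 and 0.40 (0.37 ± 0.09, adjusted p = 0.0477, and 0.28 without the block). Of 13 endothelial, fibroblast and adipocyte markers tested 1 rose, the surface protease Fap, at -3.07, -3.15 and -3.96 against -4.95, -4.41 and -7.20 (adjusted p = 0.00434, and 0.10 without the block). Fap was well above background on 4 of 6 untreated arrays, and its difference was 1.57 without replicate 3. The summed level of this list was 247 to 324 in treated samples and 251 to 309 in untreated ones. None of 7 leukocyte markers was called. Actb was at 7.76, 7.75 and 8.21, against 7.95, 7.77 and 8.23 (-0.08 ± 0.07).

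For 9 genes called higher (0.0624% of those tested) all 3 treated arrays and none of the 6 untreated arrays were well above background. Only a lower bound of their rise can be given. Each bound sets the treated mean against the dimmest measurable signal of the untreated arrays. The adjusted p-values given with the bounds are those of the limma fit. They rest on untreated values below background and do not test the bound. Iigp1, an IRG GTPase, was at -0.88, 1.06 and 4.28 in treated cells, against -7.86, -7.20 and -5.87 in untreated cells, at least 138-fold higher (adjusted p = 2.43e-05). Ifit1bl1 was at -1.80, 0.54 and 3.85, against -7.16, -7.41 and -6.06, at least 89.6-fold higher (adjusted p = 0.000103). Gm4951 was at least 15.9-fold higher (adjusted p = 3.02e-05), Apol10b 6.12-fold, the predicted gene Gm7609 5.36-fold, the vomeronasal receptor Vmn1r49 4.95-fold, Cstdc5 of the cystatin family 4.27-fold and the LIM-domain regulator Lmo2 3.51-fold, each as a bound. Apol10b and Vmn1r49 were not called without the block (adjusted p = 0.054 and 0.19). Without replicate 2, 3 genes met the rule. A further 36 of the 403 genes were above background on 1 to 5 untreated arrays, among them Csprs (3 arrays) and Gm12250 (1 array). Both are among the 15 largest fitted rises, but no size is given because their untreated levels lay mostly at background.

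The 94 falls held 1 gene of the lists. Zfp174, a zinc finger gene, was at -6.29, -6.96 and -7.70 in treated cells, against -5.83, -5.45 and -3.93 in untreated cells, with 0 of 3 treated and 3 of 6 untreated arrays well above background. It was called lower (adjusted p = 0.0426), but no size is given because its levels lay mostly at background. Zfp799, another zinc finger gene, was at -3.36, -3.09 and -4.59, against -2.95, -2.42 and -3.24. Its groups overlapped while each pair differed the same way, and it fell by 0.81 (SE 0.16, adjusted p = 0.017). Srgap1, a GTPase-activating protein, fell by 0.80, the phosphatase Pdxp by 0.73, the small GTPase Rab26 by 0.72, the myeloid receptor gene Trem1 by 0.70 and the ubiquitin ligase Rnf182 by 0.68. Cyren, a regulator of DNA end joining, and the co-chaperone Bag4 fell by 0.66 each. Of these 10 largest falls, counting Ccl20, only Zfp174 was called without the block. Only Zfp799 and Ccl20 were called without replicate 3, and 0 without the untreated sample of replicate 3 (n = 3 against 2, limma).

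The dose of 1000 IU/ml was set against 100 IU/ml, for which 2 samples remained, in the same fit. The submitters left out the replicate 3 array at 100 IU/ml for unusually strong induction of interferon-stimulated genes, the response compared here. Replicate 3 at 1000 IU/ml stayed in. The median of Ifit and Oas genes over untreated replicate 3 was 4.92 on the array left out and 5.12 at 1000 IU/ml. The counts below therefore depend on that choice. Of 14428 genes 130 (0.901%) differed, 127 (0.88%) higher and 3 (0.0208%) lower at 1000 IU/ml, and all 127 were among the 403. They included 13 of 16 GTPases, 11 of 14 Ifit and Oas genes, 6 of 6 Isg15 conjugation genes and 7 of 26 MHC class I genes. Iigp1 was at -6.04 and -7.20 at 10 IU/ml, -6.26 and -5.03 at 100 IU/ml and -0.88, 1.06 and 4.28 at 1000 IU/ml. Cxcl10 was at 2.10 and 1.28 at 10 IU/ml, 2.50 and 2.61 at 100 IU/ml and 5.32, 6.34 and 6.85 at 1000 IU/ml, a difference of 3.22 ± 0.48 between the upper doses (adjusted p = 0.00772). Gbp5 was higher by 4.64 ± 0.63 (adjusted p = 0.00537). Iigp1, Ifit1bl1, Gm12250 and Gm4951 were called higher too, but their levels at 100 IU/ml lay at or near background, so the size and order of these differences are not given. Isg15 was also higher at 1000 IU/ml (1.35 ± 0.27, adjusted p = 0.0411). Without the block 72 genes differed, with all 24 arrays 0, and without replicate 1 likewise 0. Both contrasts use the 1000 IU/ml samples.

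Against IFN epsilon at the same 1000 IU/ml, limma called 0 of 14428 genes (0%), with 832 at an unadjusted p under 0.05. The 95% confidence interval had a median of 0.24 to either side over all genes but was wider for genes with large rises such as Gbp5 and Ifit3. Their differences were -1.12 ± 0.55 and -0.64 ± 0.52, and neither was called. Of the 403 genes, 22 had an unadjusted p under 0.05. Replicates went different ways: levels under IFN beta were below those under IFN epsilon for 386 of the 403 genes in replicate 1 and 367 in replicate 2, but for 29 in replicate 3. The median difference was -0.57, -0.45 and 0.40. Ifit3 was at 4.56, 5.68 and 7.01 under IFN beta, against 5.99, 6.38 and 6.81 under IFN epsilon, and Gbp5 at -0.36, 0.93 and 3.50, against 2.31, 2.55 and 2.58. Without replicate 3 limma called 56 genes, 49 lower and 7 higher under IFN beta, and 35 of the 49 were among the 403. Median scaling called 16.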

How the data were processed

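RNA of ID8 cells was measured on single-colour Agilent arrays. The deposited scanner files hold 62976 spots, and their processed signal is an intensity that, per the file headers, Agilent software (Feature Extraction, version 11.0.1.1) had background-subtracted without scaling between arrays. The deposited log2 values of the series matrix were made with R 3.6.1 and limma 3.42.0, per the submitters' processing notes. Their median was 5.75 to 5.78 per array and they correlated with log2 scanner signal at 0.989 to 0.994, while the sources used here do not give their centring or background step.

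Control spots and 79 to 280 outlier spots per array were left out and 0 spots were saturated. Log2 signal minus the 75th percentile of the array was averaged per probe, and the 2 arrays of each untreated sample were averaged. A probe was kept where 2 or more samples of any group had it well above background. Names came from RefSeq accessions of GRCm38.p6: 32994 of 56605 probes matched 22911 genes, 23611 stayed unnamed, and the brightest probe stood for a gene. Of 184 called genes with several probes, 176 had all probes of 1 sign. Limma 3.58.1 in R 4.3.3 (lmFit, eBayes, 10 residual degrees of freedom) was fitted to 19 samples in 7 groups blocked on replicate number. The design text of the series calls the replicates biological and puts them on separate dates, and same-numbered samples deviated together (correlations 0.54, 0.54 and 0.73). All are cultures of 1 line, so p-values apply to such cultures only. They rest on the residual spread left after the replicate block, pooled over the 19 samples in 7 groups. They do not measure how far the response to IFN beta varied between replicates in the treated and untreated samples alone. For single genes that variation can be wider than the SE given. The number of arrays limits precision. Over all genes the median 95% interval against untreated cells reached 0.24 to either side, while that of Gbp5 reached 1.20. The normexp alternative used the median signals, as the files hold no mean signal. The fit was tested on simulated data. Alternatives tried were the block, scaling, background, filter, probe, slide and sample choices given in the closing section.

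Genes were named as the 15 largest rises, the 10 largest falls, up to 4 called members per list, a fixed panel of 24 pathway and control genes, the 10 largest bounds and the 5 largest called differences from 100 IU/ml IFN beta and from IFN epsilon. Promoters were printed for the 4 largest rises with a core and the 2 largest without, none on chromosome 18. Other members given as examples were chosen after their values were seen. The comparison, lists, promoter motif and rules were chosen with earlier results of these data known. Of 503 listed genes 420 were tested. Near-identical copies (Ifit3 and Ifit3b, Trim30a and Trim30d, Apol9a and Apol9b, Gbp, H2, Phf11 and Oas1 genes) are uncertain one by one. Promoter sequences are from RefSeq (GRCm38.p6), and matches were counted on both strands in Python 3.11.15 with pandas 2.3.3. Some listed genes are not reported here.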

Additional observations from a re-analysis of the deposited data

Results flagged for a closer look

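The 2 arrays that the labels mark as left out were not part of any comparison, and they carried a strong signal. The median log2 difference of the 14 Ifit and Oas genes from the untreated sample of replicate 3 was 4.92 on the marked array of 100 IU/ml IFN beta and 4.16 on that of 10 IU/ml, beside 5.12 in the 1000 IU/ml sample of the same replicate. The 16 GTPases had 5.06, 4.45 and 5.16, and the 26 MHC class I genes 1.88, 1.59 and 1.96 on the same 3 arrays. The cause was not tested.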

How the results depend on the processing

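Across 22 alternative settings, each of the 403 genes that rose and the 94 that fell kept its direction in the 7 settings where this was counted (without replicate 3, the 6 samples alone, the deposited log2 values, all 24 arrays, median scaling, scaling on probes detected on all arrays, and quantile normalization), while calls were lost. Of 74 named called genes, the fit without the replicate block kept 56. Without the block 228 genes rose, 2 fell and 72 differed from 100 IU/ml. Median scaling gave 244, 8 and, against IFN epsilon, 16, and its rises shared 212 with the 403 but its falls only 1 with the 94. Of 117 falls with the deposited log2 values 41 were among the 94. Quantile normalization shared 67 of its 92 falls with them, and the falls from scaling on detected probes held all 94. Quantile normalization, scaling on probes detected on all arrays, the deposited log2 values and all 24 arrays each gave 1 gene against IFN epsilon. Scaling on detected probes gave 220 falls, no filter on dim probes 18 falls and 80 genes against 100 IU/ml, and slide as a block 334 falls. The fit to 6 samples had fewer degrees of freedom and used only their own spread. It gave 14 rises, 0 falls, 13 list genes and 0 switched-on genes. All 24 arrays gave 117, 9, 85 and 3, and 0 against 100 IU/ml. Leaving out a sample or a replicate number gave 91 to 523 rises, 1 to 290 falls, 75 to 164 list genes, 3 to 9 switched-on genes, 0 to 56 against IFN epsilon and 0 to 265 against 100 IU/ml. Leaving out a whole replicate number was chosen after seeing the data. A longer core, with CT after it, was in 10.1% of promoters of genes that rose and 0.438% of all tested. None of the 74 named called genes changed direction in the 22 settings, and the named genes that did were not called. Ifnar1 was at -0.131 with median scaling, -0.0121 with scaling on detected probes, -0.0622 with normexp, -0.0598 with the deposited values, -0.0152 averaged over probes and -0.0250 to 0.0897 with samples left out. Ifnar2 was at -0.0495 with median scaling. Jak1 was at 0.0369 with normexp, 0.0185 with the deposited values and -0.0587 to 0.0260 with samples left out. Actb was at 0.0116 with the deposited values, and Ifnb1 at -0.117 to 1.1 with samples left out. Causes were not tested. Genes near background have levels set by few arrays.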

Other observations

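Families put together after their values were seen held genes that rose, beside 2.79% of all genes tested. Of 19 complement genes tested 4 rose: Cfb, of the alternative pathway, and C4a, C4b and C2, of the classical pathway. Cfb rose by 2.69 ± 0.43, C2 by 1.39 ± 0.24 and C4b by 1.69 ± 0.28 (adjusted p = 0.0554 without the block in limma). C4a was well above background on 2 treated arrays and 0 untreated ones, so no size is given. Its adjusted p was 0.191 without the block in limma. C4a and C4b are near-identical. Of 20 genes of purine and NAD metabolism 6 rose, among them Xdh, which makes uric acid (2.64 ± 0.46), the purine salvage enzyme Pnp2 (1.68) and Nampt, which makes NAD precursor (1.27 ± 0.17). The medians of these families were 0.20 and 0.02. Of 7 apolipoprotein L genes 5 rose, counting Apol9a, Apol9b and Apol10b already described, and Apol7c (2.94 ± 0.66) and Apol7a (2.00 ± 0.30).

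Genes that rose often lay side by side. Of the 403, 157 (39.0%) had another of them as the next tested gene on the chromosome, against 585 (4.17%) of the other genes, and 83 lay in 20 runs of at least 3. The longest run held 8 genes on chromosome 7, mostly Trim genes from Trim6 to Trim30d, the next 7 Oas genes on chromosome 5. Many neighbours are copies of each other, so shared probe signal and separate rises cannot be told apart here.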
